A study of Mus musculus with 2 samples.

Results

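The metallothioneins Mt1, Mt2 and Mt3 and the metal-sensing transcription factor Mtf1 were described in cells of mouse brains that carried an experimental melanoma metastasis or were naive. They were chosen by name, as 4 of the 55401 genes in the count tables of both libraries, and their level was taken in each cell class and library. The mice of both groups were C57BL/6J and 10 weeks old, and the brains of 3 of them were pooled for the single library of a group. Mice of the metastasis group had B16/F10-BrM cells, a mouse melanoma line, injected into the brain, and the other group is labelled naive. Both pools were dissociated, cleared of myelin and enriched with beads against ACSA-2, a surface antigen of astrocytes, and both were sequenced with the 10x Chromium 3′ v3 chemistry. The injected mice have no sham-injected counterpart in the samples analysed here, so the tumour and the injection cannot be told apart.

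Metallothioneins are small cysteine-rich proteins that bind zinc and copper and can hold cadmium. Mt1 and Mt2 are expressed in many tissues and are induced by metals, glucocorticoids and inflammatory signals, whereas Mt3 is the form best known from the nervous system and responds little to metals. Mtf1 encodes the zinc-finger protein that senses free zinc and drives Mt1 and Mt2 through short metal response elements in their promoters. In brain, astrocytes are a known source of metallothioneins.

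The 3 metallothionein genes lie close together on chromosome 8 of GRCm38, all on the plus strand (GENCODE M21). Mt3 (ENSMUSG00000031760.9) spans 94152607 to 94154146, Mt2 (ENSMUSG00000031762.7) spans 94172664 to 94173568, and Mt1 (ENSMUSG00000031765.8) spans 94179082 to 94180327. Mtf1 (ENSMUSG00000028890.13) lies on the plus strand of chromosome 4, from 124802104 to 124849800. Mt4 (ENSMUSG00000031757.7), a further member of the family next to Mt3, gave 1 UMI in the kept cells of the metastasis library and 2 UMIs in those of the naive library. The antisense gene Gm45774 covers 432 of the 588 exonic bases of Mt2, and it gave 71 and 72 UMIs in the kept cells against 20300 and 19338 for Mt2. Whether the counting used the strand, and how it treated reads that match both Mt1 and Mt2, is not given in the sources used here.

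The promoters of the 3 metallothionein genes are shown for their metal response elements, and no link to the levels in cell classes was tested. Each runs from 250 bases before to 27 bases after the RefSeq start (GRCm38.p6, plus strand), at chr8:94178839-94179115 for Mt1, chr8:94172368-94172644 for Mt2 and chr8:94152357-94152633 for Mt3. Capitals mark matches, on either strand, to the core of a metal response element, searched as TGCACNC and TGCGCNC.
Mt1 promoter: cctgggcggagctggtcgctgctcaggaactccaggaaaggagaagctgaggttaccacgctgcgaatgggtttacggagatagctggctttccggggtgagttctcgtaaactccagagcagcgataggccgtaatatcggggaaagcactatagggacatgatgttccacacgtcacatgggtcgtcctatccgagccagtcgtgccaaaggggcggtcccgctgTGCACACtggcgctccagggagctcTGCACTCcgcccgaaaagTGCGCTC
Mt2 promoter: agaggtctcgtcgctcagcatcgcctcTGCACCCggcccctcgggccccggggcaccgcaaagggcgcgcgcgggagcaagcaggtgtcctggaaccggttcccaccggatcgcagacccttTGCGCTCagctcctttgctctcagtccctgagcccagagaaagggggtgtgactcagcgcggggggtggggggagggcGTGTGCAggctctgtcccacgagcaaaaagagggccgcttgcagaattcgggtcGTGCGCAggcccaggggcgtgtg
Mt3 promoter: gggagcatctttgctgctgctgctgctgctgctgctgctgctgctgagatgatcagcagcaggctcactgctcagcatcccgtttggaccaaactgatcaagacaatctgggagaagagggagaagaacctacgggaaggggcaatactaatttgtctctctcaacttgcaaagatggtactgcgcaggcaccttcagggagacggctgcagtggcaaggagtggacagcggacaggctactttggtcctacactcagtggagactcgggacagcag
Mt1 had 3 matches, at -23, 3 and 21 counted from the RefSeq start, and Mt2 had 4 matches, at -223, -128, -50 and 5. Mt3 had 1 match, which begins at 28, just past the stretch shown, and Mtf1 had 0 matches within 250 bases before and 50 bases after its RefSeq start. The RefSeq starts are not all the GENCODE starts given above. The GENCODE start of Mt2, 94172664, lies past the end of the stretch shown. Mt1 has 3 transcripts in GENCODE, and whether all begin near the RefSeq start was not checked. Only its window from 94178839 to 94179138 was searched, so the positions and the count of its matches hold for that window alone. The Mtf1 window, 124802299 to 124802598, lies inside the GENCODE span of the gene, so sequence before its GENCODE start was not searched. Of the 32851 promoter windows of that length in the table, 12.6% held TGCACNC, 15.4% held TGCGCNC and 25.7% held either. At least 3 matches were found in 1.97% of the windows and at least 4 in 0.517%. These shares are not matched for GC content. It was 60.7% in the window of Mt1, 67.7% in that of Mt2, 56.0% in that of Mt3 and 66.3% in that of Mtf1. The median over all windows was 52.7%. A match is a match of letters and is not evidence of binding.

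With barcodes limited to 1000 UMIs and 500 genes or more and to 20% mitochondrial UMIs or less, and without called doublets, 13100 cells of the metastasis library and 13140 of the naive library were kept. The files held 89193669 and 69445557 UMIs, and the kept cells had medians of 2823 and 2765 UMIs. The submitters exchanged the titles of the records after release, and Pmel, a melanosome gene of the injected line, gave 174742 UMIs in the metastasis library and 4774 in the naive library over all barcodes. Cells were clustered and called "like" a type from marker lists. Astrocyte-like cells numbered 335 and 1033, 2.56% and 7.86% of the kept cells after the bead enrichment, and all 12 astrocyte markers were detected in them in both libraries. Clusters 3, 8, 16, 18 and 19 were left unnamed by the marker rule, hold 22.7% and 10.2% of cells, and are given by number. Cluster 3 was nearest to the oligodendrocyte list, and 1743 of its cells were named oligodendrocyte singly by their own marker UMIs. Cluster 8, nearest to the macrophage/monocyte list, held 1313 cells of metastasis and 20 of naive. Neither cluster enters the oligodendrocyte-like or macrophage/monocyte-like values. A single library per group has no replicate check, so every difference was left untested. Levels are UMIs of a gene over all UMIs of the class, scaled to counts per 1000000 (CPM), and every interval is a 95% interval that covers counting error only.

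Mt1 and Mt2 were both highest in ependymal-like cells, with astrocyte-like cells next in both libraries. The Mt1 level of ependymal-like cells was 6350.2 CPM in metastasis against 7559 CPM in naive. In astrocyte-like cells it was 5049.8 CPM (4873 to 5232) in metastasis against 5833 CPM (5729 to 5939) in naive, which made Mt1 number 10 and number 9 by UMIs among the genes detected there. Oligodendrocyte-like cells had 756 and 825 CPM of Mt1, and microglia-like cells had 595 and 584 CPM. Cluster 3, left out of the oligodendrocyte-like cells, had 291 and 363 CPM. The astrocyte-like level of Mt1 was 6.68 times the oligodendrocyte-like level in metastasis and 7.07 times in naive. At the low end, choroid plexus epithelium-like cells had 248 and 213 CPM of Mt1, the lowest of the 14 classes and clusters ranked in naive and the lowest but one of the 16 ranked in metastasis, above the 182 CPM of endothelial-like cells. The classes were built from the same cells and genes, so these differences between classes are descriptions.

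Cluster 16, led by genes that include Sox11, Chga and Calb2, had 2303 and 2496 CPM of Mt1. Melanoma-like cells numbered 694 in the metastasis library and 18 in the naive one, too few to give a level there, and those of metastasis had 2421 CPM of Mt1 (2399.7 to 2442) and 408 CPM of Mt2 (399 to 417). Their Mt1 level lay between those of astrocyte-like cells and cluster 16, and each neighbour in this order differed beyond counting error. In the naive library, from olfactory ensheathing-like cells at 1092 CPM to fibroblast-like cells at 786 CPM, no class exceeded the next beyond counting error. Classes further apart in this stretch could differ. The olfactory ensheathing-like interval of 1052 to 1132 CPM lay above the oligodendrocyte-like interval of 810.0 to 839 CPM.

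Mt2 was the sparser gene, with 1089.7 and 1145 CPM in ependymal-like cells, 727 CPM (661 to 798) and 893 CPM (853 to 935) in astrocyte-like cells and 639 and 775 CPM in cluster 16. It fell away more steeply than Mt1 outside these cells. Oligodendrocyte-like cells had 46.0 and 51.1 CPM, so that the astrocyte-like level of Mt2 was 15.8 times theirs in metastasis and 17.5 times in naive. Expressed as UMIs of Mt2 per UMI of Mt1, which is not corrected for length and is read only between classes, the value was 0.144 and 0.153 in astrocyte-like cells, 0.172 and 0.151 in ependymal-like cells, 0.278 and 0.311 in cluster 16 and 0.0608 and 0.0620 in oligodendrocyte-like cells. Within the free RNA it was 0.167 and 0.149. The oligodendrocyte-like interval, 0.0557 to 0.0663 in metastasis and 0.0576 to 0.0667 in naive, lay below all of these.

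Mt3 shared the top classes with Mt1 and Mt2 and was high in 1 class more. Its level in ependymal-like cells was 6246 CPM in metastasis against 8193 CPM in naive, and 3334 CPM (3189.9 to 3482) and 3918 CPM (3833 to 4004) in astrocyte-like cells. Choroid plexus epithelium-like cells, low in Mt1 and Mt2, had 1418 CPM (1379 to 1458) and 1478 CPM (1451 to 1506) of Mt3, and ranked number 3 in metastasis and number 4, after cluster 16, in naive. They held 5.71 UMIs of Mt3 per UMI of Mt1 in metastasis and 6.94 in naive, against 0.660 and 0.672 in astrocyte-like cells and 0.984 and 1.08 in ependymal-like cells. Melanoma-like cells were at the other end, with 38.0 CPM of Mt3 and 0.0157 UMIs of Mt3 per UMI of Mt1.

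Mtf1 did not follow the metallothioneins. Oligodendrocyte-like cells had the highest level in both libraries, 86.8 CPM (metastasis) and 90.2 CPM (naive), from 1041 and 1356 UMIs. Cluster 3, led by Klk6 and Enpp6 and nearest to the oligodendrocyte list, came next with 60.0 and 64.3 CPM. Ependymal-like cells had 42.5 and 36.5 CPM, and astrocyte-like cells, rich in Mt1, had 24.7 CPM (13.8 to 40.8) and 20.4 CPM (14.7 to 27.6), from 15 and 42 UMIs. The oligodendrocyte-like level of Mtf1 was 3.51 times the astrocyte-like level in metastasis (2.12 to 6.29) and 4.43 times in naive (3.26 to 6.17). Among the other classes most neighbours in the order did not differ beyond counting error.

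**Figure D1:**
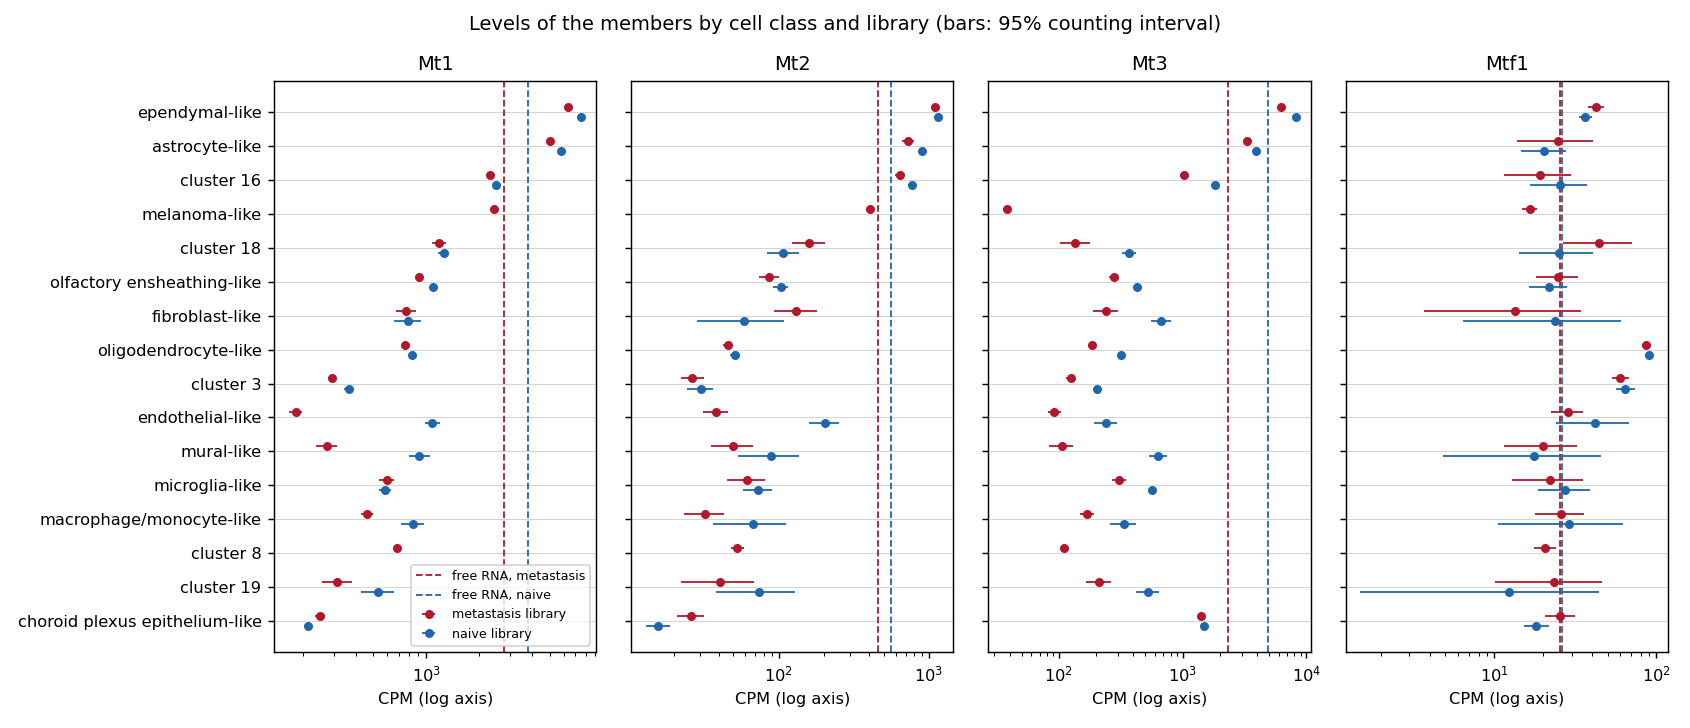
Level of Mt1, Mt2, Mt3 and Mtf1 in CPM (log axis) by cell class, with 1 point per library, 95% counting intervals and dashed lines at the free RNA level of each library. Ependymal-like and astrocyte-like cells lie to the right for Mt1, Mt2 and Mt3, choroid plexus epithelium-like cells lie to the right for Mt3 but not for Mt1 or Mt2, and oligodendrocyte-like cells lie to the right for Mtf1.

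Droplets without a cell hold RNA released from broken cells, and its content bears on the low classes. Barcodes with 100 to 300 UMIs gave a free RNA level of 2756 CPM (metastasis) and 3764 CPM (naive) for Mt1, 461 and 560.3 CPM for Mt2, 2343 and 4895 CPM for Mt3, and 25.3 and 26.1 CPM for Mtf1. Mt1 exceeded it in ependymal-like and astrocyte-like cells in both libraries, at 230.4% and 201% of the free level in the former and 183% and 155% in the latter. Mt3 exceeded it in ependymal-like cells, at 267% and 167%, whereas astrocyte-like cells stood at 142% in metastasis and 80.0% in naive. Free RNA makes up only part of the RNA of a cell, so a class below that level can still express the gene.

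The part was estimated from Ttr, the transthyretin gene that choroid plexus epithelium makes, whose level outside that class was set against its level in the free RNA (103916 CPM in the metastasis library, 213816 CPM in the naive one). Oligodendrocyte-like cells held Ttr at 6.29% and 5.76% of its free level, microglia-like cells at 11.3% and 10.2%, and astrocyte-like cells at 10.9% and 10.3%. At these fractions free RNA would give oligodendrocyte-like cells 147 and 282 CPM of Mt3, and the measured levels were 186 and 319 CPM. In microglia-like cells it would give 265 and 500.2 CPM of Mt3, and 307 and 565 CPM were measured. For astrocyte-like cells it would give 255 and 504 CPM, well under the 3334 and 3918 CPM measured there. In the naive library the Mt3 level was not apart from this estimate, within its counting interval, in 5 of 13 classes and clusters, and in metastasis in 2 of 15, with cluster 18 below it. Mt1 exceeded its estimate in 15 of 15 classes and clusters in metastasis and in 13 of 13 in naive. In oligodendrocyte-like cells the estimate for Mt1 was 173 and 217 CPM against 756 and 825 CPM measured. The interval leaves out the error of the fraction itself, which rests on 1 gene.

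**Figure D2:**
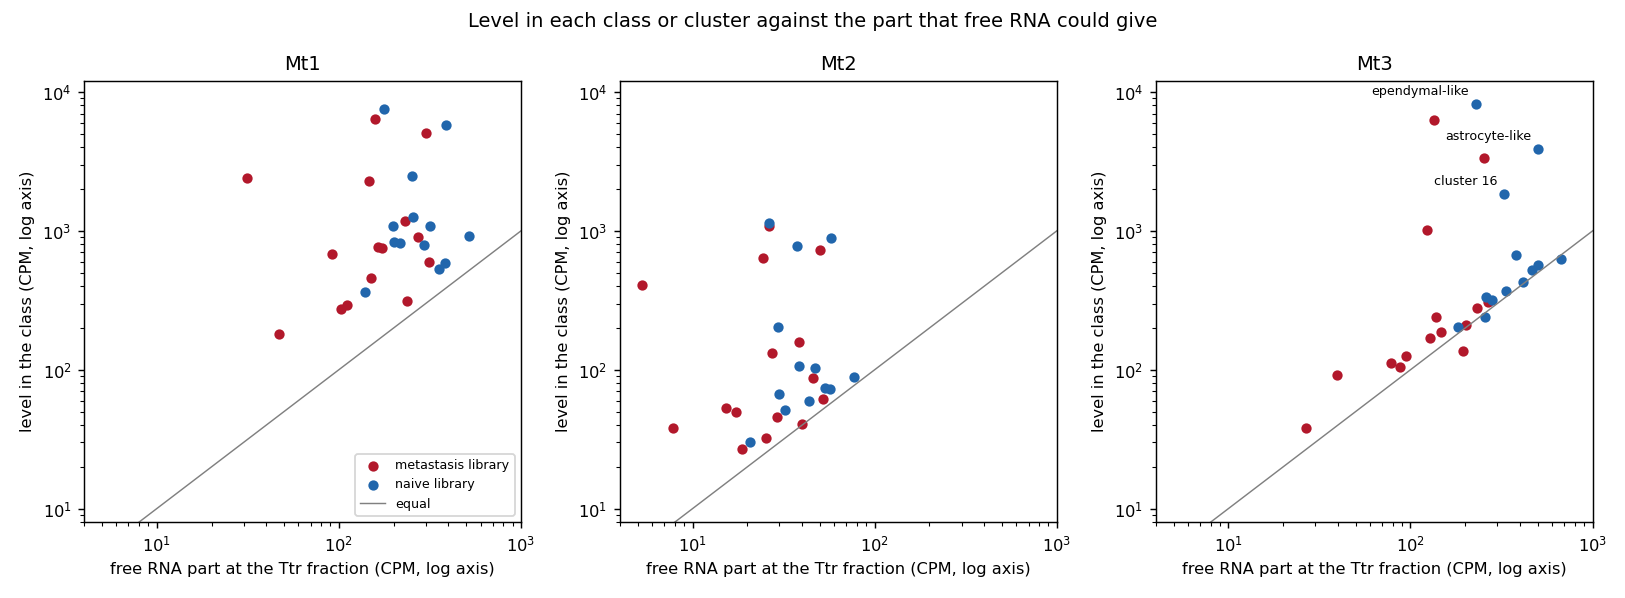
Level of Mt1, Mt2 and Mt3 in each class or cluster (CPM, log axis) against the part that free RNA would give at the fraction set by Ttr (CPM, log axis), with 1 point per class and library; choroid plexus epithelium-like cells, the source of Ttr, are left out. For Mt3 most points lie near the line of equality, while ependymal-like cells, astrocyte-like cells and cluster 16 lie far above it.

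Single cells showed how widely the genes were detected within a class. After every cell was thinned to 1000 UMIs, Mt1 was found in 92.5% of astrocyte-like cells in metastasis (89.2 to 95.1) and 94.7% in naive (93.1 to 96.0), and in 96.0% and 97.5% of ependymal-like cells. The share in oligodendrocyte-like cells, set beside it as a comparison for Mt1 and Mt2, was 49.1% and 54.0%. Their Mt1 level exceeded the free RNA estimate, so this share is not a measure of free RNA alone. The median astrocyte-like cell had 1653 (metastasis) or 1792 (naive) UMIs, the median oligodendrocyte-like cell 2584 or 2880. Mt2 was found in 46.3% (40.8 to 51.8) and 50% (47.0 to 53.1) of astrocyte-like cells and 59.0% and 61.6% of ependymal-like cells, against 4.52% and 4.88% of oligodendrocyte-like cells. Mt3 was found in 86.0% of astrocyte-like cells in metastasis (81.8 to 89.5) and 90.5% in naive (88.6 to 92.2). The share was 25.7% and 41.8% in microglia-like cells, which had median depths of 1530 and 1703 UMIs. Without thinning the astrocyte-like shares were 95.2% and 96.6% for Mt1, 63.6% and 65.9% for Mt2, and 91.0% and 94.7% for Mt3. The comparison shares without thinning were 80.7% and 85.4% for Mt1 and 11.3% and 13.9% for Mt2 in oligodendrocyte-like cells. For Mt3 in microglia-like cells they were 37.4% and 59.1%. Mt1 and Mt3 were thus detected in nearly every astrocyte-like cell, and the 10% of astrocyte-like cells with the most thinned Mt1 UMIs held 26.2% and 26.7% of them.

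Choroid plexus epithelium-like cells had Mt3 in 65.0% of cells in metastasis and 72.4% in naive after thinning, above the microglia-like shares, and Mt1 in 27.1% and 19.5%, below the oligodendrocyte-like shares. Their median depths were 10858 and 12551 UMIs, and without thinning the shares were 95.7% and 97.8% for Mt3 and 77.5% and 81.5% for Mt1. Melanoma-like cells had Mt1 in 82.9%, Mt2 in 31.0% and Mt3 in 4.18% of cells, at a median depth of 29834 UMIs, and in 98.7%, 90.6% and 60.4% without thinning. In cluster 16 cells with Mt3 had Mt1 in 81.3% (73.7 to 87.5) in metastasis and 85.2% (79.9 to 89.5) in naive. Its cells without Mt3 had Mt1 in 46.3% (38.0 to 54.7) and 50.8% (41.6 to 60.1). Among oligodendrocyte-like cells the same shares were 53.2% with and 48.3% without Mt3 in metastasis and 57.6% and 52.6% in naive. The direction was the same in ependymal-like cells (96.6% and 83.2% in metastasis, 97.9% and 81.1% in naive) and astrocyte-like cells (94.1% and 83.0%, 96.0% and 81.6%). It was the other way, with overlapping intervals, in cluster 18 of naive (62.4% with and 71.4% without Mt3) and cluster 19 of metastasis. So it was in macrophage/monocyte-like, mural-like and fibroblast-like cells of naive. Choroid plexus epithelium-like cells had close shares (27.5% and 26.5% in metastasis, 19.8% and 18.4% in naive). Mt2 was in 60.4% of ependymal-like cells with and 25.3% without Mt3 in metastasis. Named singly by their own marker UMIs, 279 cells of cluster 16 were astrocytes, its most common name. At resolution 2, Sox11 and Calb2 led a cluster named neuroblast, with 165 cells of metastasis and 149 of naive. Chga and Cck were among the leading genes of an unnamed cluster there, with 121 and 209 cells. Astrocyte was the most common name of its single cells. The part of mixed cell types in the values of cluster 16 was not tested. Mtf1 was found in 7.90% and 8.67% of oligodendrocyte-like cells and in 1.19% and 1.65% of astrocyte-like cells, with 4 and 17 such cells in the latter; without thinning the shares were 20.9% and 23.2% against 4.18% and 3.87%.

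**Figure D3:**
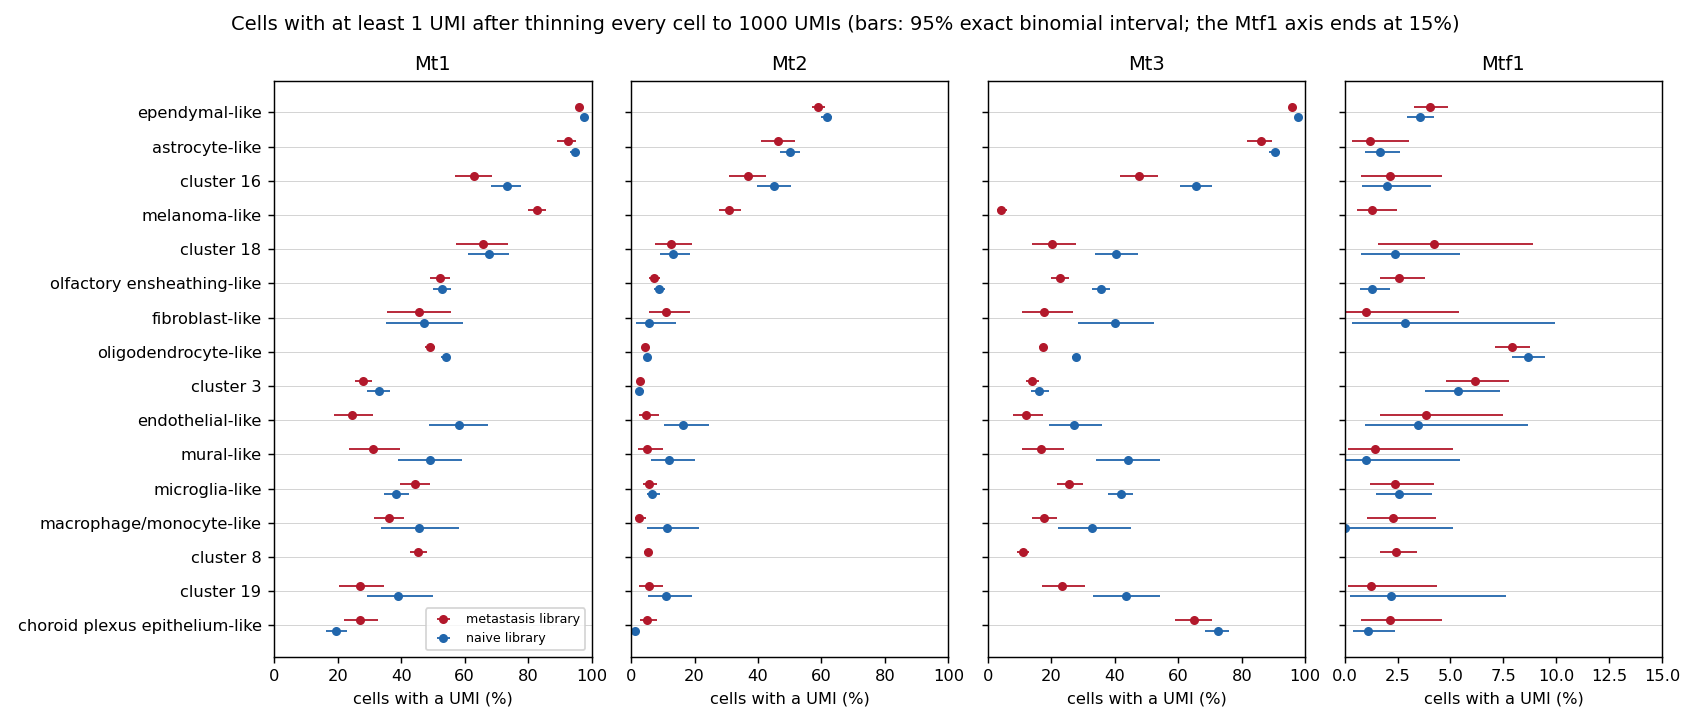
Percent of cells with at least 1 UMI after thinning every cell to 1000 UMIs, by class and library, with 95% exact binomial intervals; the axis of Mtf1 ends at 15%. Mt1 and Mt3 lie above 85% in ependymal-like and astrocyte-like cells in both libraries, and Mt2 lies between 46.3% and 61.6% there.

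Between metastasis and naive, the metallothioneins of astrocyte-like cells differed little. The log2 ratio of metastasis over naive was -0.21 for Mt1 (-0.27 to -0.15), -0.30 for Mt2 (-0.45 to -0.15) and -0.23 for Mt3 (-0.30 to -0.16), from 3063 and 12015, 441 and 1840, and 2022 and 8070 UMIs. All 3 intervals lay below 0, and the levels stood 1.16, 1.23 and 1.18 times higher in naive. The ratio of Mtf1 was 0.28 (-0.68 to 1.16), with an interval that includes 0. Over the 10466 genes measured in these cells the interquartile range of the log2 ratios was -0.24 to 0.29, and over the 1549 genes above 100 CPM, to which Mt1, Mt2 and Mt3 belong, it was -0.11 to 0.17. The ratios of Mt1 and Mt3 lay inside the first range, and those of all 3 metallothioneins lay below the second. No member reached 2-fold, 0 of 4, where 2.39% of all genes were at least 2-fold higher and 3.31% at least 2-fold lower. The free RNA ratio was -0.45 for Mt1, -0.28 for Mt2 and -1.06 for Mt3. With the estimated free part taken off, the astrocyte-like ratios were -0.20 for Mt1, -0.30 for Mt2 and -0.15 for Mt3. Markers of the melanoma line summed to 679 CPM in the astrocyte-like cells of metastasis (9 of 9 detected) and 57.3 CPM in those of naive (8 of 9), and macrophage markers to 331 CPM (11 of 12) and 14.1 CPM (5 of 12). The part of these cells' RNA in the ratios was not tested.

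In ependymal-like cells, ciliated cells that line the ventricles, the log2 ratio of metastasis over naive was -0.39 for Mt3 (-0.41 to -0.38), -0.25 for Mt1 (-0.27 to -0.24) and -0.07 for Mt2 (-0.11 to -0.03). The ratios came from 51153 and 107051 UMIs of Mt3 and 52003 and 98757 UMIs of Mt1. As in astrocyte-like cells 0 of 4 members reached 2-fold, where 3.74% of genes were higher and 1.23% lower. Most ependymal-like cells of cluster 12, led by the interferon-induced genes Ifit3, Gbp2 and Igtp, came from metastasis, 838 against 6. That cluster had 6115 CPM of Mt1 and 6209.5 CPM of Mt3. In the clusters present in both libraries Mt3 was lower in each, and Mt2 was not apart, with 0.02 in cluster 2, -0.01 in cluster 6 and 0.07 in cluster 14 and intervals that include 0. In cluster 2 the ratios were -0.12 for Mt1 and -0.34 for Mt3, and in cluster 6 they were -0.19 and -0.26. Cluster 6, which Mt3 itself helps to define as 1 of its leading genes, had 8427 and 10062 CPM of Mt3. Cluster 14, of shallower cells led by cilia genes such as Dnah12, had less of both, with 2432 and 2519 CPM of Mt1 and 1971 and 2458 CPM of Mt3, and ratios of -0.05 for Mt1 (-0.15 to 0.05) and -0.32 for Mt3.

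Across the 10 named classes with at least 50 cells in each library, Mt3 was lower in metastasis beyond counting error in 10, Mt1 in 7 and Mt2 in 4, and Mt1 was higher in 1 and Mt2 in 2. Mtf1 was higher in 2, which were the choroid plexus epithelium-like and the ependymal-like cells (0.22, 0.02 to 0.42), and lower in 0. The share of all genes beyond counting error was not taken, so these counts have no background. They take each class as a whole, whatever its cluster mix or free part. Mt3 of endothelial-like cells is counted as lower, and was 0.40 (-0.08 to 0.87) in cluster 23, their only cluster present in both libraries. Mt2 of ependymal-like cells is counted as lower, with intervals that include 0 in clusters 2, 6 and 14. The free RNA ratio of Mt3 was -1.06, and the ratios of the classes low in Mt3 spread on both sides of it. They were -2.59 in mural-like, -1.48 in fibroblast-like, -1.38 in endothelial-like, -0.78 in oligodendrocyte-like, -0.88 in microglia-like, -0.98 in macrophage/monocyte-like and -0.62 in olfactory ensheathing-like cells. With the free part taken off, oligodendrocyte-like cells had 38.5 and 36.6 CPM of Mt3 left, microglia-like cells 42.1 and 64.8 CPM, macrophage/monocyte-like cells 41.3 and 74.5 CPM and fibroblast-like cells 100 and 288 CPM. The ratios of what was left were 0.08, -0.62, -0.85 and -1.53, with no interval. In the naive olfactory ensheathing-like, endothelial-like and mural-like cells the Mt3 level was not apart from the free part, so no ratio is read there. The count of 10 for Mt3 includes these classes. The ependymal-like ratio of Mt3 was -0.38 after the same step. In cluster 16 the Mt3 levels of 1020.1 and 1841 CPM gave a ratio of -0.85 (-0.96 to -0.74), with free parts of 124 and 328 CPM. The astrocyte marker list (12 of 12 detected in both libraries) summed to 2767 and 4122 CPM in that cluster, and astrocyte was the most common name when its cells were named singly by their own marker UMIs, given to 279 of them. Its part in the Mt3 ratio was not tested.

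Choroid plexus epithelium-like cells, which make cerebrospinal fluid, kept close levels of Mt3, with a log2 ratio of -0.06 (-0.11 to -0.01). Mt1 was 0.22 (0.10 to 0.34) and Mt2 0.72 (0.31 to 1.13) on the same scale, from 877 and 1580 UMIs of Mt1 and only 92 and 117 UMIs of Mt2. The Mt1 levels of 248 and 213 CPM stood at 9.01% and 5.66% of the free RNA, and those of Mt2 at 5.65% and 2.82%. No free part was estimated for this class, the source of Ttr. In the other classes and clusters Ttr stood at 1.14% to 13.7% of its free level. The part of free RNA in the Mt1 and Mt2 levels was thus not told apart. The median log2 ratio of all genes in this class was 0.12, and after scaling by the median of ratios Mt1 was 0.10 (-0.02 to 0.22), an interval that includes 0. Mtf1 was 0.48 (0.08 to 0.88) there, from 90 and 135 UMIs. In these cells macrophage markers summed to 374 CPM (11 of 12 detected) and 11.1 CPM (6 of 12), microglia markers to 264 and 75 CPM (8 of 8 in both) and melanoma markers to 387 CPM (9 of 9) and 179 CPM (7 of 9), and their part in the ratios was not tested.

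Vascular cells had the largest differences. In endothelial-like cells Mt1 was at 182 against 1082 CPM, which is -2.57 in log2 (-2.76 to -2.38), Mt2 was 38.3 and 202 CPM (-2.40), and Mt3 was 92.1 and 239 CPM (-1.38). The members at least 2-fold lower were 3 of 4, where 17.4% of all genes in this class were. Different clusters hold the class: cluster 24, led by Igfbp3, Cd93 and Plvap, has 152 cells from metastasis and 0 from naive, and cluster 23 has 55 and 115. Without cluster 24 the Mt1 ratio was -0.27 (-0.53 to -0.02), that of Mt2 was -0.16 (-0.76 to 0.42) and that of Mt3 was 0.40 (-0.08 to 0.87). Cluster 24 itself had 124 CPM of Mt1 and 26.8 CPM of Mt2. Median depths of endothelial-like cells were 5811 and 2504 UMIs, and Ttr stood at 1.70% and 5.26% of its free level.

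In mural-like cells, the pericytes and smooth muscle cells of vessels, Mt1 was 274 and 914 CPM (-1.74) and Mt3 105 and 632 CPM (-2.59), with median depths of 3909 and 1536 UMIs and Ttr at 3.75% and 13.7% of its free level. The members at least 2-fold lower were 2 of 4, where 16% of all genes were. Their free parts would be 103 and 516 CPM of Mt1 and 87.9 and 672 CPM of Mt3, close to the Mt3 levels. The remaining differences of 2-fold or more rested on few UMIs or on Mt3. They were Mt2 in macrophage/monocyte-like cells (-1.05, from 44 and 14 UMIs, where 6.92% of genes were lower), Mt2 in fibroblast-like cells (1.15, from 39 and 10 UMIs, where 7.96% were higher), Mt3 in fibroblast-like cells (-1.48, where 3.18% were lower), Mt3 in cluster 18 (-1.45, where 2.88% were lower) and Mt3 in cluster 19 (-1.31, where 3.59% were lower). In cluster 18 Mt3 lay below its free part in metastasis and was not apart from it in naive. Cluster 19 had Mt3 not apart from it in both libraries. Mt2 was not apart from its free part in macrophage/monocyte-like cells of metastasis and fibroblast-like cells of naive. No ratio is read from these levels. Depth and the free part moved with the vascular differences, and their share in them was not tested.

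**Figure D4:**
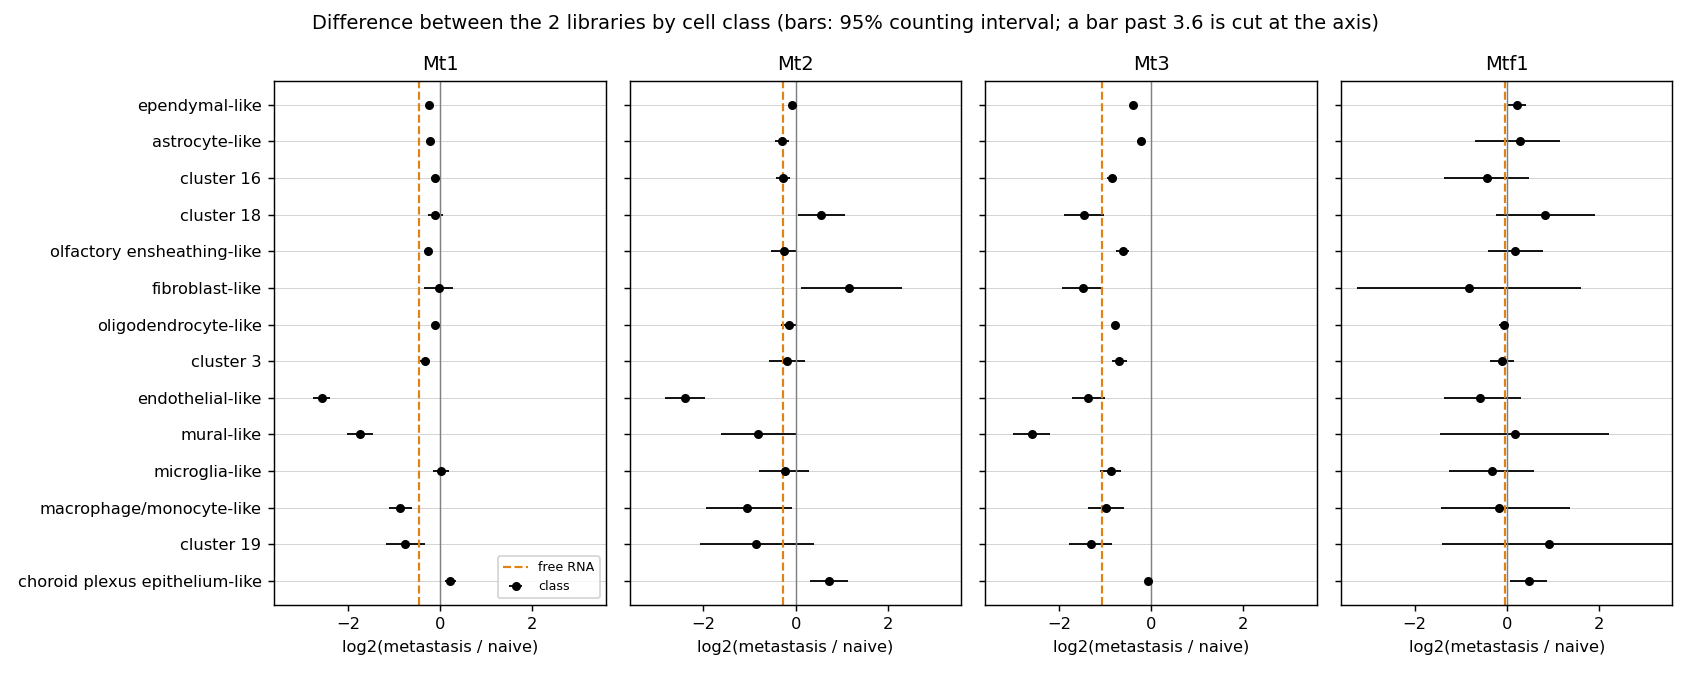
Log2 ratio of metastasis over naive for each member by cell class, with 95% counting intervals and a dashed line at the ratio of the free RNA. The Mt3 points lie left of 0 and spread on both sides of the dashed line at -1.06, those of astrocyte-like, ependymal-like and choroid plexus epithelium-like cells lie nearer to 0, and endothelial-like and mural-like cells lie far left for Mt1.

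The genes that handle zinc and copper beside the metallothioneins were compared in astrocyte-like cells, counting members with at least 20 UMIs over both libraries, where 2.39% of all genes were at least 2-fold higher and 3.31% lower. Of 7 zinc exporters measured, 0 were 2-fold higher and 0 lower, with a median log2 ratio of -0.12. Slc30a10, an exporter of manganese and zinc, had the highest level of them at 188 and 205 CPM (-0.12). Of 9 zinc importers none reached 2-fold (median 0.11), and Slc39a12 had 318 and 299.6 CPM. Of 9 genes of copper handling none did (median 0.18), among them Atox1, the copper chaperone, with 143 and 150 CPM. The median over all genes was 0.03.

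Against the same shares of all genes, 2.39% and 3.31%, other targets of MTF1 gave 1 of 5 that was 2-fold higher, Selenoh, a selenoprotein gene, at 39.6 and 14.6 CPM (1.44, 0.60 to 2.27), while the exporter Slc30a1, a known MTF1 target that is also in the exporter list, was 29.7 and 33.0 CPM (-0.15, -0.99 to 0.61). Selenoh was 183 and 55.6 CPM in the free RNA. Glucocorticoid-induced genes gave 1 of 8 higher, the kinase gene Sgk1 at 31.3 and 15.1 CPM (1.06), while Tsc22d3 was 130.2 and 159 CPM (-0.29). NRF2 targets gave 1 of 8 higher, the heme oxygenase gene Hmox1 (1.47, from 9 and 11 UMIs, at 14.8 and 5.34 CPM against 95 and 10.3 CPM in the free RNA), and 1 lower, Srxn1 (-1.11, -3.49 to 0.62, from 3 and 22 UMIs). IL-6/STAT3 targets gave 2 of 3 higher, Serpina3n (1.47, from 9 and 11 UMIs) and Junb (1.42, from 22 and 28 UMIs). The genes known to be induced during tissue dissociation gave 6 of 9 higher with a median of 1.22, among them Fos at 125 and 45.2 CPM (1.47), Egr1 (1.33), Hspa1a (1.76), Hspa1b (1.09), Ier2 (1.22, -0.03 to 2.42) and Atf3, at 21.4 and 5.34 CPM. In the free RNA Fos was 435 and 165 CPM, Junb 255 and 86.0 CPM, Atf3 179 and 51.3 CPM and Sgk1 142 and 95.5 CPM. Egr1 was 110.1 and 72.3 CPM there, Hspa1a 119 and 94.7 CPM, Hspa1b 109 and 92.6 CPM and Ier2 83.1 and 33.1 CPM. The part of free RNA in the astrocyte-like ratios of these lists was not tested. Mt1 and Mt2 were lower in the same cells, and whether the listed genes bear on them was not tested.

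The same lists were counted in 3 other classes. In ependymal-like cells 7 of 7 measured IL-6/STAT3 targets reached 2-fold upwards (median 3.92), where 3.74% of all genes did, among them Lcn2, whose protein binds bacterial iron carriers, at 97.0 against 0.0765 CPM (10.31, 7.82 to 15.61, from 794 UMIs and 1), and Serpina3n at 64.7 and 2.76 CPM (4.55, 4.07 to 5.08). In oligodendrocyte-like cells 7 of 7 were higher, with a median of 2.41, where 4.79% of all genes were. In choroid plexus epithelium-like cells 3 of 4 were higher, with a median of 1.90, where 4.73% were, and Lcn2 was 60.6 and 0.270 CPM (7.81, 5.94 to 10.87, from 214 and 2 UMIs). The zinc exporters gave 0 of 7, 0 of 7 and 0 of 6 past 2-fold in these 3 classes, and the copper genes 0 of 11, 0 of 10 and 0 of 11. Other targets of MTF1 gave 0 of 5, 0 of 5 and 1 of 5 higher and 0 lower. Glucocorticoid-induced genes gave 1 of 12, 2 of 11 and 0 of 10 higher and 0 lower. Among the zinc importers 1 of 11 was higher in oligodendrocyte-like cells, Slc39a11 (1.03, from 39 and 24 UMIs), with 0 past 2-fold in the other two classes. The dissociation genes gave 2 of 9, 4 of 9 and 5 of 9 higher in these 3 classes. Their medians were 0.56, 0.81 and 1.07, and 0 were lower. They were lower in mural-like (6 of 9), macrophage/monocyte-like (5 of 9) and endothelial-like cells (4 of 9). There 16%, 6.92% and 17.4% of all genes were lower. Hmox1 was higher in ependymal-like, oligodendrocyte-like and choroid plexus epithelium-like cells, by 1.69, 1.76 and 1.73, beside its free RNA levels of 95 and 10.3 CPM. The part of free RNA in these ratios was not tested.

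Over the 28 values of 14 classes and clusters in 2 libraries, the genes whose log2 level was most like that of Mt1 were Mt2 (Pearson r 0.95), Fmn2 (0.89), Tox2, Cry2 and Mro (0.87 each), of 10999 genes compared. For Mt2 they were Mt1 (0.95), Cspp1 (0.91), and Tox2, Fmn2 and Sox1 (0.89 each). The genes most like Mt3 included Clu and Sox9 (0.95 each), Rmst (0.94) and Tspoap1 (0.91), and its r with Mt1 was 0.74. Mtf1 was most like Bcl2l1 (0.86), Plxnb3, Adipor2, Jakmip3 and Arhgef28 (0.82 each), and its r was 0.01 with Mt1, -0.11 with Mt2 and -0.19 with Mt3. The 28 values share their libraries and free RNA, and the correlations are descriptions.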

How the data were processed

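Each library held 6794880 barcodes and 55401 genes. The authors deposited UMI counts per gene and barcode, whole numbers that are not normalized, per the file contents. The submitters' processing notes name STARsolo and GRCm38; its version and settings are not given in the sources used here. The members and gene lists were chosen with earlier results of these data known.

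Barcodes passed with at least 1000 UMIs, 500 genes and at most 20% mitochondrial UMIs, 13745 and 13995, of which 53 occur in both libraries. Scrublet's own threshold called 0 cells in metastasis, so after this was seen the lower of both thresholds, 0.203, was used for both, which removed 645 and 855. Clustering took both libraries at once, with no integration step (scanpy 1.11.5, 2000 variable genes, 30 components, 15 neighbours, Leiden resolution 1). Clusters were named from marker lists with thresholds that were set and revised after the clusters had been seen, without use of the members' levels. A list needed 3 members at 2-fold and a median log2 fold of at least 1 over the other clusters. Clusters 3, 8, 16 and 19 met these limits for their nearest list (medians 1.9, 1.76, 2.67 and 4.96) and were still left unnamed. Cluster 3 had 0 oligodendrocyte markers and the neuroblast marker Tubb3 among its 10 leading genes. The nearest lists of clusters 8, 16 and 19 were macrophage/monocyte, neuroblast and neutrophil. The most common names of their single cells were microglia, astrocyte and T/NK.

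UMIs were summed over the cells of a class and library and divided by their total (CPM). Intervals are exact at 95%: Poisson for levels, conditional binomial for ratios and Clopper-Pearson for shares, checked on simulated counts. They take no account of differences between animals. Free RNA came from barcodes with 100 to 300 UMIs, 10901989 and 10697779 UMIs. Thinning drew 1000 UMIs per cell. Named list members had at least 20 UMIs and reached 2-fold in astrocyte-like cells, or had the largest ratios in another class; Slc30a10, Slc39a12, Slc30a1, Atox1 and Tsc22d3 were added after their values were seen. Like patterns used log2(CPM + 10) of genes with at least 500 UMIs. Some genes that these rules name are not reported here. Alternatives varied the barcode limits, doublets, resolution, naming, scaling, weighting, free RNA, thinning and minimum UMIs.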

Additional observations from a re-analysis of the deposited data

Results flagged for a closer look

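Astrocyte-like cells had lower Mt1 and Mt2 in metastasis, and 4 values lay on the other side of 0 beyond counting error. They were Mt1 in choroid plexus epithelium-like cells (log2 ratio 0.22), Mt2 in the same cells (0.72), Mt2 in cluster 18 (0.56, from 64 and 69 UMIs) and Mt2 in fibroblast-like cells (1.15, from 39 and 10 UMIs). The difference from astrocyte-like cells was not tested, since each group is 1 library. The naive fibroblast-like level of Mt2 was not apart from its free part. In choroid plexus epithelium-like cells the median ratio of all genes was 0.12, and after scaling by the median of ratios the Mt1 interval included 0. Mt1 stood there at 9.01% and 5.66% of its free RNA level and Mt2 at 5.65% and 2.82%. The free part of these levels was not estimated.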

How the results depend on the processing

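No paired analysis was possible because each group has 1 library. In astrocyte-like cells the ratios of Mt1, Mt2 and Mt3 stayed below 0 under every alternative run. Naming each cell by its own marker UMIs moved Mt1 to -0.35 and Mt3 to -0.36, and taking off the free RNA moved Mt3 to -0.15. Taking off the free RNA left small remainders of Mt3, whose ratios were above 0 in cluster 3 (0.59), olfactory ensheathing-like (1.65) and oligodendrocyte-like cells (0.08). They have no interval, and the naive olfactory ensheathing-like remainder of 14.9 CPM was not apart from 0, so no reversal is read from them. Leaving out clusters 12 and 24, an alternative chosen after seeing the data, gave Mt3 in endothelial-like cells 0.40, with an interval that includes 0. The cause was not tested. Of 56 ratios, scaling by the median of ratios left 52 within their interval, the total without mitochondrial genes 56 and the mean over cells 48.

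Counts of named classes beyond counting error moved as follows. Mt1 was higher in 2 classes with own-marker naming and in 0 with the median of ratios. Mt2 was higher in 1 with at least 2000 UMIs or at least 1000 genes, and lower in 7 with the median of ratios. Mtf1 was higher in 1 with at most 10% mitochondrial UMIs, doublets kept, own-marker naming or those clusters left out, and in 0 with the median of ratios; it was lower in 1 with doublets kept, resolution 0.5 or own-marker naming. Free RNA from barcodes with 10 to 100 UMIs gave ratios of -0.25 for Mt1, 0.25 for Mt2, -0.93 for Mt3 and -1.18 for Mtf1, and 2 classes with Mt3 above it in naive. Shares of astrocyte-like cells without thinning were 95.2% and 96.6% for Mt1, 63.6% and 65.9% for Mt2, 91.0% and 94.7% for Mt3, and 4.18% and 3.87% for Mtf1. With no minimum of UMIs, 2 zinc importers, 4 glucocorticoid-induced genes, 2 NRF2 targets and 5 IL-6/STAT3 targets were 2-fold higher in astrocyte-like cells. With a minimum of 50 UMIs, 0 NRF2 targets were higher and 0 lower, 1 IL-6/STAT3 target was higher and 3 dissociation genes were. Depth limits Mtf1 most, with 15 and 42 UMIs in astrocyte-like cells.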
